A study of Saccharomyces cerevisiae with 28 samples.

Results

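The proteins of the large subunit of the cytosolic ribosome in the budding yeast Saccharomyces cerevisiae are encoded by 76 RPL genes, 76 of 6021 protein-coding genes in the R64 annotation. They were chosen by name alone: a standard symbol made of RPL and a number, which leaves out the mitochondrial MRPL genes and the stalk genes RPP0 to RPP2B. All 76 were matched by systematic name to the untagged total RNA count tables, which list 9217 features. They encode 43 proteins, of which 33 come from a pair of gene copies, A and B, and 10 from a single gene (RPL3, RPL5, RPL10, RPL25, RPL28, RPL29, RPL30, RPL32, RPL38 and RPL39). An intron interrupts 52 of the 76 genes. The coding sequences run from 78 nt (RPL41A and RPL41B) to 1164 nt (RPL3), with a median of 468 nt. The copies of a pair share 78.9% to 99.4% of their coding bases (median 93.7%), and 12 pairs encode identical proteins.

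The series asked how the La-related proteins (LARPs) Slf1 and Sro9 act on mRNAs during oxidative stress, and combined PAR-CLIP of both LARPs with total RNA sequencing. Total RNA came from the deletion strains Δslf1 and Δsro9 (slf1Δ and sro9Δ below), each with its whole open reading frame (ORF) replaced by a drug marker, and from their parent BY4741 (WT). PAR-CLIP used Slf1-TAP and Sro9-TAP cells, which carry a purification tag at the C terminus of the LARP at its own locus, and which were grown with the photoreactive base 4-thiouracil. Cells were either exposed to 0.4 mM H2O2 for 15 min or left untreated, with 2 libraries per group. For total RNA a culture was divided between the conditions, in duplicate, and for PAR-CLIP the methods describe duplicate cultures of each condition. Each genotype is a single strain, so p-values measure the spread between duplicate cultures and not between strains of a genotype. In the edgeR fit of total RNA this spread was shared over all 6 groups of strain and condition.

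Ribosomal protein genes are transcribed together under the control of Rap1, Fhl1, Ifh1 and Sfp1, which respond to nutrient and stress signalling, and their repression is a hallmark of the general stress response of yeast. Fast growth takes a large share of mRNA synthesis for ribosomal proteins, and the proteins are needed in equal numbers in each ribosome. They are made in the cytoplasm, escorted into the nucleus by importers and, for some, dedicated chaperones, and mostly assembled there with rRNA. LARPs carry a La motif, an RNA-binding fold, and both yeast LARPs studied here are found with translating ribosomes. In PAR-CLIP, ultraviolet light joins 4-thiouracil in RNA to the protein bound there, and such a base turns up as C where the genome has T, so that read clusters with T–C conversions mark where the protein lay.

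The RNA stretches of RPL mRNAs that both LARPs touched in every PAR-CLIP library are shown first, because they are the best supported contacts of the family. A stretch of at least 12 nt was covered by a cluster in all 8 libraries at 8 places in 7 RPL genes. No such count is given for other genes, so whether it is high for this family was not tested. Of these, 5 lay in ORFs, 2 within 200 nt after the stop codon and 1 across a stop codon, and their median length was 29 nt. The sequences of 6 are given 5′ to 3′ on the strand of the RNA as DNA letters, read from the R64 genome, with any TGGT or TGCT, and likewise any CGGT or CGCT, in capitals. These 4 words spell out the consensus from the study's motif search in LARP sites.
RPL3, coding nt 297 on, XV:444982-445004, plus strand: gagatctttgaccaccgtctggg
RPL23B, coding nt 333 on, V:397572-397599, plus strand: ttctgccattacTGGTccagtCGGTaag
RPL32, coding nt 349 on, II:46326-46361, plus strand: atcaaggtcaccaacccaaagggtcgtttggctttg
RPL39, coding nt 79 on, X:76397-76411, plus strand: atcagattgagaacc
RPL39, coding nt 112 on, X:76430-76459, plus strand: aaCGCTaagagaagaaactggagaagaacc
RPL41B, after the stop codon, IV:221634-221653, minus strand: aatcctttgattggaccgtc

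Of the 8 stretches, 3 held one of the 4 motifs: RPL23B, the downstream one of RPL39, and the one across the stop codon of RPL2B. The stretch of RPL23B, which encodes a protein on the face of the large subunit that meets the small one, lay in clusters of 35 and 26 reads in Slf1 libraries after H2O2 and 28 and 34 in untreated ones. For Sro9 the clusters over it held 394 and 244 reads after H2O2 and 499 and 402 untreated. RPL39 encodes a very short protein that lines the tunnel through which new proteins leave, and it was the only RPL gene with 2 such stretches. The RPL32 stretch had the highest Sro9 read numbers of those printed, 835 and 730 after H2O2 and 1172 and 726 untreated, against 108 and 9 for Slf1 after H2O2 and 79 and 145 untreated.

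The 2 copies of RPL23 are given as an example of clusters on near-identical mRNAs. Over 73 nt of coding sequence (nt 333 to 405 of 414) the copies differ at 6 bases, given in capitals, where the RPL23B line begins with its stretch shown above.
RPL23A, II:59831-59903, minus strand: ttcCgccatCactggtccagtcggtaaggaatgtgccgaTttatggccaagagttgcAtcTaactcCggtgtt
RPL23B, V:397572-397644, plus strand: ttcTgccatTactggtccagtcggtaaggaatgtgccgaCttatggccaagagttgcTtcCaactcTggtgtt
Clusters whose mode, the position of highest signal, lay in this window held 141 and 135 Slf1 reads after H2O2 and 222 and 0 untreated on RPL23B, against 0 and 0 after H2O2 and 0 and 30 untreated on RPL23A. For Sro9 they held 610 and 371 reads after H2O2 and 348 and 178 untreated on RPL23B, against 150 and 0 after H2O2 and 96 and 94 untreated on RPL23A. Every library with reads in the window on both copies had more on RPL23B, and the second untreated Slf1 library had reads on RPL23A only, since the mode of its cluster over the RPL23B stretch lay outside the window. The window begins at a stretch chosen for its RPL23B clusters in all 8 libraries, which favours RPL23B, so it cannot compare the copies. Over whole genes, window included, Slf1 had 337 reads on RPL23B and 0 on RPL23A after H2O2, and 263 and 39 untreated. Sro9 had 1326 and 446 after H2O2, and 1634 and 304 untreated.

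The 12 untagged total RNA libraries held between 3323216 and 21447260 counts, of which 1.65% to 94.8% fell on 40 rRNA features that were left out. In 3 libraries rRNA took over 75% of the counts: replicate 1 of slf1Δ after H2O2 (94.8%, leaving 172265 counts), replicate 1 of untreated sro9Δ (93.7%, 242553 counts) and replicate 2 of WT after H2O2 (81.4%, 783305 counts). The counts and medians of the RPL genes in each strain comparison, and those of the other gene lists in WT, are given with and without them. The deletion labels held, with 0 or 1 counts of SRO9 in each sro9Δ library and 0 of SLF1 in each slf1Δ library. SRX1, the sulfiredoxin induced by peroxide, stood at 866 to 1928 CPM (counts scaled by library size with TMM) after H2O2 and 0 to 5.11 CPM untreated. Total RNA of the tagged strains was used in no test, because its SRX1 levels go against its labels. Features annotated over 4 RPL genes on the other strand took nearly the same counts or a fixed part of them: the feature's count was 0.997 to 1.01 times that of RPL28, 1.00 to 1.01 times that of RPL22A, 1.01 to 1.06 times that of RPL33A and 0.5682 to 0.666 times that of RPL10. The reads of these genes and of their partners cannot be told apart.

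RPL mRNAs were a smaller part of the RNA after H2O2 in each strain. They made up 5.13% and 8.16% of the counts on protein-coding genes in slf1Δ cells after H2O2, against 9.91% and 10.47% in untreated slf1Δ cells. In sro9Δ cells the shares were 5.05% and 3.41% after H2O2, against 7.74% and 8.28% untreated, and in WT cells 4.999% and 5.75% after H2O2, against 8.70% and 10.955% untreated. The libraries of the conditions did not overlap in any strain, with the closest values in slf1Δ, and 2 libraries against 2 cannot go below an exact permutation p of 0.333. These are shares of a library: a lower amount of RPL RNA per cell and a higher amount of other RNA cannot be told apart.

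**Figure D1:**
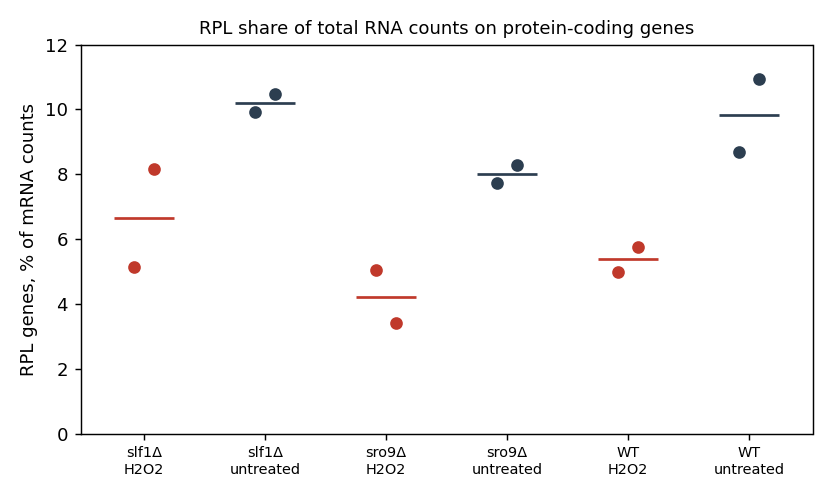
Share of the 76 RPL genes in the counts on protein-coding genes (y axis, percent) in the 12 untagged total RNA libraries, by strain and condition; points are libraries and lines the mean of 2. In each strain both libraries after H2O2 lie below both untreated ones, and slf1Δ after H2O2 has the widest gap between replicates, 5.13% and 8.16%.

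Gene by gene, 30 of the 76 RPL genes fell after H2O2 in WT cells and none rose, in the quasi-likelihood test of edgeR at an adjusted p under 0.05 (p-values adjusted by the Benjamini-Hochberg method over all 7377 features tested). Over all features, 16.5% fell and 19.2% rose. The median log2 fold change of the RPL genes was -1.14, with a range of -1.68 to 0.66, against 0.02 over all features, and 73 of the 76 had a negative sign. Both WT libraries after H2O2 lay below both untreated ones for 66 RPL genes, against 33.1% of all features, and above them for 1, against 35.2%. Without the 3 libraries with over 75% rRNA, 5 RPL genes passed with a median of -1.22. Without replicate 1 of WT after H2O2 none passed (median -0.997), without replicate 2 of it 3 did (-1.22), and without replicate 2 of untreated WT 8 fell and 2 rose (-0.78). The count was higher, at 46, without replicate 1 of untreated WT (median -1.39), and 48 without either slf1Δ library after H2O2, which enter this fit through the shared spread.

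The lowest fold change in WT was that of RPL21B (XVI:406636-407539, plus strand, 1 intron), with 259 and 295 CPM after H2O2, against 729 and 1048 CPM in untreated WT cells, a log2 fold change of -1.68 (SE 0.48, adjusted p = 0.0123). RPL22B and RPL22A encode forms of a protein known in yeast for binding the RPL22B intron and holding back its splicing. RPL22A (XII:263194-263948, plus strand, 1 intron) had 312 and 380.0 CPM after H2O2, against 786 and 1224 CPM in untreated WT cells, a log2 fold change of -1.54 (SE 0.39, adjusted p = 0.00634), and RPL22B (VI:64243-64932, minus strand, 1 intron) had 25.1 and 19.9 CPM after H2O2, against 57.9 and 83.7 CPM in untreated WT cells, at -1.61 (SE 0.43, adjusted p = 0.00835). Both copies fell, although RPL22A is the far more abundant one. RPL12A, one of the copies for the protein at the base of the ribosomal stalk, had 343 and 455 CPM after H2O2, against 906 and 1376 CPM in untreated WT cells, at -1.52 (SE 0.44, adjusted p = 0.014). RPL16B had 559 and 693 CPM after H2O2, against 1430 and 2087 CPM in untreated WT cells, at -1.49 (SE 0.43, adjusted p = 0.0132). In all 5 genes the untreated libraries were above those after H2O2 without overlap. The smallest adjusted p of the family was that of RPL31B, whose protein sits by the tunnel exit, at -1.44 (SE 0.33, adjusted p = 0.00293).

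RPL3, RPL10 and RPL5 did not pass the test, and neither did the 2 copies of RPL11. RPL3 (XV:444686-445849, plus strand, no intron), which reaches toward the peptidyl transferase centre, had 3227 and 3289 CPM after H2O2, against 4751 and 6007 CPM in untreated WT cells, a log2 fold change of -0.72 (SE 0.53, adjusted p = 0.305). RPL10 (XII:282927-283592, plus strand, no intron), whose protein is among the last to join the subunit and makes it competent for translation, had 2851 and 2548 CPM after H2O2, against 3019 and 4208 CPM in untreated WT cells, at -0.42 (SE 0.51, adjusted p = 0.55). RPL5 (XVI:303121-304014, plus strand, no intron), which carries the 5S rRNA together with the RPL11 protein, had 1557 and 1963 CPM after H2O2, against 3390 and 4392 CPM in untreated WT cells, at -1.14 (SE 0.48, adjusted p = 0.0756). In each of these the untreated libraries were the higher ones. RPL11A, at -1.10 (SE 0.45, adjusted p = 0.0674), and RPL11B, at -0.89 (SE 0.37, adjusted p = 0.0741), stood near RPL5 in their fold change.

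Of the other genes with a known special role, the single-copy genes RPL25, RPL28 and RPL30 did not pass either. RPL25, the docking site of nascent-chain factors at the tunnel exit, had 761 and 931 CPM after H2O2, against 1141 and 2373 CPM in untreated WT cells, at -1.06 (SE 0.49, adjusted p = 0.102). RPL28, in which mutations give cycloheximide resistance, had 651 and 675 CPM after H2O2, against 1138 and 2167 CPM in untreated WT cells, at -1.32 (SE 0.54, adjusted p = 0.0692). RPL30, whose protein binds its own transcript and blocks its splicing, had 486 and 513 CPM after H2O2, against 452 and 1035 CPM in untreated WT cells, at -0.58 (SE 0.67, adjusted p = 0.537), with overlapping conditions. RPL40A and RPL40B, which encode ubiquitin fused to a ribosomal protein, were at -0.87 and -0.64 (adjusted p = 0.165 and 0.291, edgeR). Of the 10 single-copy genes, RPL38 alone passed, with a median of -0.83 over the 10.

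The 3 RPL genes with a positive sign in WT were RPL41A, RPL41B and RPL15B, and none of them passed. RPL41A (IV:130407-130484, minus strand) and RPL41B (IV:221724-221801, minus strand) encode the same tiny peptide at the contact between the subunits. RPL41A had 242 and 364 CPM after H2O2, against 107 and 274 CPM in untreated WT cells, at 0.66 (SE 0.43, adjusted p = 0.254), and RPL41B had 397 and 269 CPM after H2O2, against 92.7 and 365 CPM in untreated WT cells, at 0.54 (SE 0.51, adjusted p = 0.429), and the conditions overlapped in both. RPL15B, the minor copy of RPL15, had 99.4 and 95.9 CPM after H2O2, against 62.0 and 94.7 CPM in untreated WT cells, at 0.31 (SE 0.29, adjusted p = 0.42). It was the 1 RPL gene with both WT libraries after H2O2 above both untreated ones, by a small margin. The other copy, RPL15A, had 1732 and 2082 CPM after H2O2, against 2693 and 4069 CPM in untreated WT cells, at -0.83 (SE 0.48, adjusted p = 0.188).

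In sro9Δ cells 9 RPL genes fell and none rose, against 5.4% and 10.8% of all features, with a median of -0.96 against 0.05. The 9 were RPL22A, RPL26A, RPL22B, RPL16B, RPL42B, RPL27A, RPL33A, RPL6A and RPL31B. RPL22A had 327 and 203 CPM after H2O2, against 761 and 844 CPM in untreated sro9Δ cells, at -1.60 (SE 0.39, adjusted p = 0.0109). RPL26A, whose protein lies at the tunnel exit, had 232 and 118 CPM after H2O2, against 481 and 515 CPM in untreated sro9Δ cells, at -1.51 (SE 0.41, adjusted p = 0.0189). RPL10 had 3001 and 2013 CPM after H2O2, against 1955 and 3047 CPM in untreated sro9Δ cells, at 0.00 (SE 0.51, adjusted p = 0.999), and the conditions overlapped. The libraries of the conditions did not overlap for 50 RPL genes in the lower direction and 3 in the higher one, against 27.3% and 33.6% of all features. Without the 3 libraries with over 75% rRNA none passed, with a median of -1.10. None passed without replicate 2 of untreated sro9Δ (-0.60) or replicate 2 of sro9Δ after H2O2 (-0.56), and 1 did without replicate 1 of untreated sro9Δ (-1.09). Without replicate 1 of sro9Δ after H2O2, 19 fell (-1.43). Of the libraries of the other strains, 21 fell without either slf1Δ library after H2O2, 17 and 18 without replicate 1 and replicate 2 of untreated WT, and 2 without any one of the WT libraries after H2O2 or the untreated slf1Δ libraries.

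In slf1Δ cells 3 RPL genes fell and none rose, against 5.22% and 11.8% of all features, with a median of -0.77 against 0.02. They were RPL14B, RPL14A and RPL22A. RPL14A (XI:431906-432720, plus strand, 1 intron) had 183 and 523 CPM after H2O2, against 878 and 1175 CPM in untreated slf1Δ cells, at -1.48 (SE 0.48, adjusted p = 0.045). RPL14B (VIII:104277-105091, plus strand, 1 intron) had 104 and 238 CPM after H2O2, against 462 and 627 CPM in untreated slf1Δ cells, at -1.57 (SE 0.41, adjusted p = 0.0142). In both copies the untreated libraries were above those after H2O2 without overlap. RPL2B, at -1.38 (SE 0.61, adjusted p = 0.141), had a low fold change that did not pass. At the other end, RPL39 (X:75933-76474, plus strand, 1 intron) had 104 and 317 CPM after H2O2, against 122 and 117 CPM in untreated slf1Δ cells, at 0.94 (SE 0.43, adjusted p = 0.155), with 1 high library after H2O2 that was not the shallow one.

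The 2 libraries of slf1Δ after H2O2 stood apart. RPL3 had 2235 and 6320 CPM after H2O2, against 5030 and 6888 CPM in untreated slf1Δ cells. RPL2B, which encodes a protein next to the catalytic centre, had 518 and 2022 CPM after H2O2, against 2683 and 3994 CPM in untreated slf1Δ cells, and RPL30 had 127 and 1088 CPM after H2O2, against 827 and 1327 CPM in untreated slf1Δ cells. In all 3 the shallow first library was the lowest of the 4, while the second lay nearer to the untreated ones. Non-overlapping RPL genes numbered 42 in the lower direction and 1 in the higher one, against 28.6% and 30.7% of all features. With only the second library kept after H2O2, no RPL gene fell, 1 rose and the median was -0.22. With only the first kept, 28 fell and the median was -1.62. Without all 3 libraries with over 75% rRNA none passed, with a median of -0.28. None passed without replicate 2 of untreated slf1Δ (-0.54), and 1 did without replicate 1 of it (-0.95) or without either WT library after H2O2. Without either untreated WT library 8 fell and 1 rose, and without replicate 1 and replicate 2 of sro9Δ after H2O2 5 and 3 fell.

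**Figure D2:**
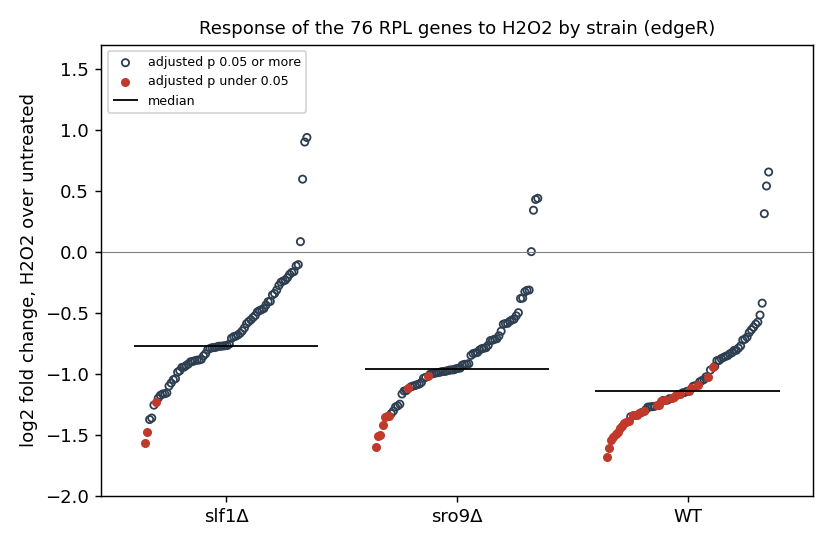
Log2 fold change of each of the 76 RPL genes, H2O2 over untreated (y axis), in slf1Δ, sro9Δ and WT cells from edgeR; each circle is a gene in rising order, filled where its adjusted p is under 0.05, and the line is the median. Most circles lie below 0 in each strain, with medians of -0.77, -0.96 and -1.14, and 3, 9 and 30 are filled.

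The differences between these responses were tested directly, in contrasts that share the WT libraries. No RPL gene differed in its response between sro9Δ and WT (0 of 76 at an unadjusted p under 0.05, smallest adjusted p = 0.843, edgeR), and 0.0% of all features did. The median difference was 0.20, positive for 58 genes, with RPL36A highest at 0.74 and RPL34B at 0.69. Between slf1Δ and WT none differed either, with 3 at an unadjusted p under 0.05, a median difference of 0.35 and a positive sign for 64. These 3 were RPL39 (1.65, SE 0.61, adjusted p = 0.281, edgeR), RPL22B (1.27, SE 0.60) and RPL31B (1.01, SE 0.45). The median difference was -0.56 without replicate 2 of slf1Δ after H2O2 and 0.81 without replicate 1, so 1 library sets its sign. It was 0.01 without replicate 2 of untreated WT. The median difference of sro9Δ ran from -0.29 without replicate 1 of sro9Δ after H2O2 to 0.56 without replicate 2, and was -0.15 without replicate 2 of untreated WT and -0.02 without replicate 1 of untreated sro9Δ, so its sign rests on single libraries too. Without the 3 libraries with over 75% rRNA the median differences were 0.06 for sro9Δ and 0.87 for slf1Δ. Over all features, 0 passed in either difference, with 555 and 880 at an unadjusted p under 0.05 for sro9Δ and slf1Δ.

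Between strains within a condition no RPL gene passed in edgeR's test. In untreated sro9Δ against untreated WT cells the median was -0.51, with 74 of 76 negative, and 3 genes were at an unadjusted p under 0.05: RPL13A (-0.99, SE 0.44), RPL24B (-0.79, SE 0.35) and RPL31B (-0.76, SE 0.33). Over all features 0.0813% were lower and 0.122% higher in untreated sro9Δ cells. RPL31B had 149.6 and 164 CPM in untreated sro9Δ cells, against 240.1 and 294 CPM in untreated WT cells. RPL genes whose libraries did not overlap were lower in untreated sro9Δ in 36 cases and higher in 0, against 20.9% and 16.1% of all features. After H2O2 the sro9Δ median against WT was -0.35, with 75 negative, no gene at an unadjusted p under 0.05 and 0.0407% and 0.0% of all features lower and higher. There, 19 RPL genes did not overlap in the lower direction and 0 in the higher one, against 21.8% and 24.3%. RPL34A had 315 and 177 CPM in sro9Δ cells after H2O2, against 348 and 477 CPM in WT cells after H2O2. Without the 3 libraries with over 75% rRNA, the medians were -0.30 untreated and -0.23 after H2O2. The untreated median was -0.18 without replicate 2 of untreated WT, -0.31 without replicate 1 of untreated sro9Δ and -0.85 without replicate 2 of it, and the one after H2O2 was -0.02 without replicate 2 of sro9Δ after H2O2 and -0.84 without replicate 1.

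In slf1Δ cells most signs were positive. Untreated slf1Δ cells had a median of 0.19 against untreated WT cells, with 61 of 76 positive and none at an unadjusted p under 0.05, where 0.0678% of all features were lower and 0.0678% higher. RPL36B was highest at 0.86, with 841 and 1188 CPM in untreated slf1Δ cells and 403 and 713 CPM in untreated WT cells. Libraries did not overlap for 6 RPL genes in the higher direction and 1 in the lower one, against 19.6% and 24.3% of all features. After H2O2 the median against WT was 0.56, with 75 positive, and 0.488% of all features were lower and 0.23% higher. The 3 genes at an unadjusted p under 0.05 were RPL22B (1.04, SE 0.45), RPL31B (0.87, SE 0.33) and RPL31A (0.74, SE 0.34), with adjusted p of 0.242 to 0.334. RPL31B had 118 and 221 CPM in slf1Δ cells after H2O2, against 88.0 and 111 CPM in WT cells after H2O2. Here 10 RPL genes did not overlap in the higher direction and 0 in the lower one, against 21.2% and 21.9%. The median after H2O2 was -0.35 without replicate 2 of slf1Δ after H2O2 and 1.04 without replicate 1, and the untreated one was -0.08 without replicate 1 of untreated WT, 0.53 without replicate 2 of it and -0.0018 without replicate 2 of untreated slf1Δ, so the sign rests on single libraries. Without the 3 libraries with over 75% rRNA the medians were 0.20 untreated and 1.08 after H2O2.

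Other genes of the pathway frame these values. Over all features, 16.5% fell and 19.2% rose in WT, 5.4% and 10.8% in sro9Δ, and 5.22% and 11.8% in slf1Δ. Of the 56 RPS genes of the small subunit, 16 fell in WT with a median of -1.06, 8 in sro9Δ (-0.96) and 2 in slf1Δ (-0.70), and none rose. None of the 5 stalk genes passed in any strain, with medians of -0.66 in WT, -0.50 in sro9Δ and -0.87 in slf1Δ. Of 34 genes of the mitochondrial large subunit, 16 rose and none fell in WT (median 0.72), 6 rose in slf1Δ (0.63) and none passed in sro9Δ (0.25). In WT, cytosolic and mitochondrial large-subunit genes thus had medians of opposite sign. Without replicate 1 of WT after H2O2, 2 RPS genes fell and 6 mitochondrial genes rose in WT, and without the 3 libraries with over 75% rRNA 9 fell and 17 rose.

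Of 12 regulators of ribosomal protein gene transcription, 6 fell and 2 rose in WT, against 16.5% and 19.2% of all features. Those that fell include IFH1, the co-activator that stress releases from these promoters, at -2.77 (SE 0.53, adjusted p = 0.000885), and FHL1, which recruits it, at -1.97 (SE 0.44, adjusted p = 0.0027). RAP1, which binds the promoters directly, was at -0.81 (SE 0.24, adjusted p = 0.0149). The 4 that did not pass in edgeR's test were SFP1 at -0.54 (adjusted p = 0.127), ABF1 at -0.55 (0.105), HMO1 at -0.15 (0.726) and DOT6 at 0.27 (0.391). Those that rose were CRF1, a co-repressor that competes with Ifh1, at 1.18 (SE 0.39, adjusted p = 0.0274), and STB3, a repressor under the control of Sch9, at 0.93 (SE 0.26, adjusted p = 0.0119). TOD6, a repressor of ribosome biogenesis genes, fell, at -3.50 (SE 0.74, adjusted p = 0.00189). Replicate 2 of WT after H2O2 held 783305 counts outside rRNA. Its low CPM values, as for TOD6, IFH1 and CRF1 (11.2 CPM), rest on few reads. TOD6 had 2.81 and 6.23 CPM after H2O2, against 68.4 and 13.2 CPM in untreated WT cells, and IFH1 10.9 and 3.74 CPM after H2O2, against 94.8 and 30.1 CPM in untreated WT cells, with the first untreated library far above the second in both. Without that library TOD6 was at -1.96 (SE 0.48, adjusted p = 0.00512, edgeR) and IFH1 at -1.69 (SE 0.40, adjusted p = 0.00392, edgeR). Without replicate 1 of WT after H2O2, 1 of the 12 fell and none rose, and without the 3 libraries with over 75% rRNA 3 fell and 2 rose. In sro9Δ 1 of the 12 fell, against 5.4% of all features, and in slf1Δ none passed.

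Of 11 chaperones and importers of large-subunit proteins, 10 fell in WT, against 16.5% of all features, with a median of -1.80. SYO1, which brings the Rpl5 and Rpl11 proteins into the nucleus together, had 10.3 and 13.7 CPM after H2O2, against 172 and 39.4 CPM in untreated WT cells, at -3.21 (SE 0.54, adjusted p = 0.000306), and at -1.82 (adjusted p = 0.00018) without the first untreated library. RRB1, the chaperone of Rpl3, was at -1.42 (SE 0.34, adjusted p = 0.0041), SQT1, that of Rpl10, at -1.20 (SE 0.29, adjusted p = 0.00459), and ACL4, that of Rpl4, at -1.42 (SE 0.36, adjusted p = 0.0063). LOC1 was the one that did not pass, at -1.08 (SE 0.45, adjusted p = 0.0704). Without replicate 1 of untreated WT 8 of the 11 fell (median -1.51), and ACL4 and RRB1 did not pass (adjusted p = 0.0614 and 0.0507, edgeR). Without replicate 1 of WT after H2O2 5 fell (-1.61), and without the 3 libraries with over 75% rRNA 6 did (-2.02). None passed in sro9Δ (median -0.88) or slf1Δ (-0.25), and none of the differences between strains passed, with a median slf1Δ minus WT difference of 1.68.

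Per length of coding sequence, the RPL mRNAs spanned a wide range. RPL15A stood at 3101 ± 402 RPKM after H2O2 and 5497 ± 1583 RPKM in untreated WT cells (CPM per kilobase of coding sequence, SD, n = 2 each). RPL10 stood at 4053 ± 322 RPKM after H2O2 and 5426 ± 1262 RPKM in untreated WT cells, and RPL3 at 2799 ± 37.7 RPKM after H2O2 and 4621 ± 763 RPKM in untreated WT cells. RPL5 stood at 1969 ± 321 RPKM after H2O2 and 4352 ± 792 RPKM in untreated WT cells, within 1 SD of RPL3 in untreated cells. RPL41B, with 4268 ± 1157 RPKM after H2O2 and 2937 ± 2472 RPKM in untreated WT cells, had an SD nearly as large as its mean in untreated cells. At the low end, RPL7B stood at 33.6 ± 7.66 RPKM after H2O2 and 55.0 ± 12.4 RPKM in untreated WT cells and RPL15B at 159 ± 4.03 RPKM after H2O2 and 127 ± 37.6 RPKM in untreated WT cells.

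The 2 copies of a pair mostly moved together in WT. The size of the difference in log2 fold change between copies had a median of 0.15 over 33 pairs in WT, from 0.00 for RPL9 to 1.14 for RPL15, with medians of 0.21 in sro9Δ and 0.32 in slf1Δ. RPL15A made up 95.1% of its pair's CPM after H2O2 and 97.7% in untreated WT cells. RPL36A made up 18.6% of its pair after H2O2 and 28.2% untreated, RPL37A 71.9% and 62.4%, RPL34A 65.6% and 55.2%, and RPL16A 40.7% and 30.9%. Most pairs kept their balance, as RPL22 did, with RPL22A at 93.9% after H2O2 and 93.5% untreated. In untreated WT cells the more abundant copy made up a median of 63.2% of its pair, from 51.1% (RPL2) to 97.9% (RPL7). Reads that fit both copies cannot be assigned with certainty, and a median of 18.5% of the 30-nt windows of an RPL coding sequence occur elsewhere in the genome, with a highest value of 88.0%.

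Genes with and without an intron did not part widely: 24 of 52 with an intron fell in WT (median -1.16), and 6 of 24 without one (median -1.03). All 9 that fell in sro9Δ and all 3 that fell in slf1Δ have an intron. The difference between these groups of genes was not tested.

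**Figure D3:**
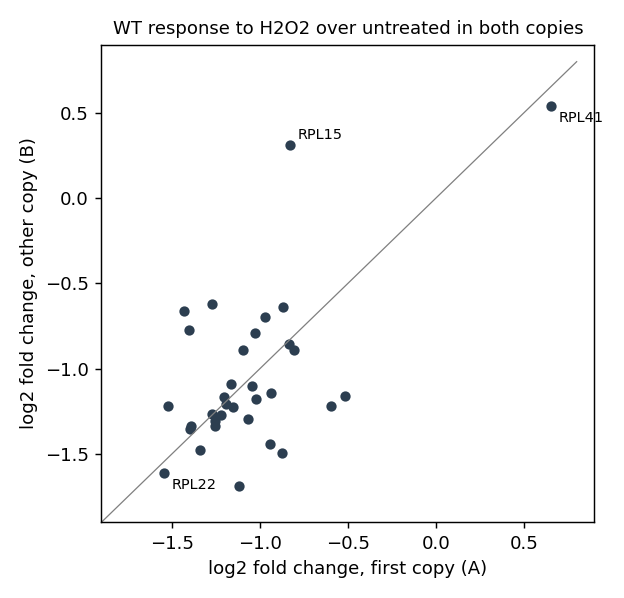
Log2 fold change, H2O2 over untreated WT cells, of the A copy (x axis) and the B copy (y axis) of the 33 RPL pairs, with the line of equal change; the RPL15, RPL22 and RPL41 pairs are named. Most pairs lie near the line, with a median gap of 0.15, and RPL15 lies farthest from it, by 1.14.

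In PAR-CLIP, nearly every RPL mRNA was a Sro9 target, here an mRNA with a kept cluster (at least 5 reads and 2 conversions) in both replicates. Sro9 had 74 of the 76 as targets after H2O2 and 74 untreated, against 32.0% and 27.4% of all 6021 protein-coding genes. RPL22B and RPL37B were the exceptions after H2O2, and RPL22B and RPL31A in untreated cells. Slf1 had 33 of the 76 as targets after H2O2 and 49 untreated, against 3.26% and 4.92% of all genes. For the RPS genes, 54 of 56 were Sro9 targets after H2O2 and 56 untreated, and for the mitochondrial large-subunit genes 10 of 34 and 8. The part of mRNA abundance in these counts was not tested.

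A total of 28 RPL genes had a cluster in all 8 libraries and were thus targets in all 4 data sets. The same count over all protein-coding genes is not given here, and the part of mRNA abundance and depth in it was not tested. RPL9B, RPL15B, RPL22B, RPL27B and RPL42A had no kept cluster in any Slf1 library, which means no site that met the limits on reads, conversions and length, not that binding is absent. All but RPL22B had Sro9 reads in every library. RPL42A, whose protein lies at the exit site of tRNA, had 225 and 190 after H2O2 and 390 and 126 untreated, though 48.6% of its reads were in clusters of unique sequence. RPL22B had 16 and 0 Sro9 reads after H2O2 and 0 and 9 untreated, against 428 and 227 and 413 and 493 on RPL22A, its far more abundant copy.

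Slf1 libraries had fewer kept cluster reads than Sro9 libraries, 342238 to 544490 against 678206 to 890669, and far fewer of these lay on mRNAs. Slf1 libraries had 31181 and 20077 cluster reads on mRNAs after H2O2 and 22907 and 32670 untreated, and Sro9 libraries 260519 and 196902 after H2O2 and 259378 and 178019 untreated. RPL mRNAs took 8.99% and 9.66% of these reads for Slf1 after H2O2, and 9.75% and 13.7% untreated. For Sro9 they took 9.53% and 10.7% after H2O2, and 12.5% and 11.5% untreated. Over both conditions the share was 10.53% ± 2.15 for Slf1 and 11.1% ± 1.25 for Sro9 (SD, n = 4 each), a difference of -0.536 percentage points (two-sided exact permutation test, p = 0.714, where the smallest possible is 0.0286). The libraries of the LARPs overlapped. Within each LARP both libraries after H2O2 lay below both untreated ones, by a narrow margin for Slf1 (9.66% and 9.75%), and 2 against 2 cannot go below an exact permutation p of 0.333. Taken over all kept cluster reads, tRNA and rRNA included, the RPL share was 0.728% ± 0.388 for Slf1 and 3.31% ± 0.385 for Sro9, a difference of -2.59 (exact permutation p = 0.0286, the smallest possible). By the read numbers above, all mRNAs together were a smaller part of the kept reads for Slf1 than for Sro9. This difference is therefore not particular to RPL mRNAs.

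The bound RPL share was set against the RPL share of WT mRNA in the total RNA libraries. The Slf1 share of mRNA cluster reads, averaged over replicates, was 9.33% after H2O2, against 5.38% of WT mRNA counts, a ratio of 1.73, and 11.7% untreated, against 9.83%, a ratio of 1.19. For Sro9 the ratios were 1.88 after H2O2 (10.1% against 5.38%) and 1.22 untreated (12.004% against 9.83%). By library the ratios were 1.67 and 1.80 for Slf1 after H2O2 and 0.993 and 1.40 untreated, and 1.77 and 2.00 for Sro9 after H2O2 and 1.27 and 1.17 untreated, so that untreated Slf1 was above 1 in 1 of its 2 libraries. The strains differ between the assays, since the total RNA is from untagged WT cells, and no test over libraries joins the 2 assays. In total RNA of the tagged strains, whose SRX1 levels go against their labels, the RPL share of counts outside rRNA was 2.23% to 4.69%. In the WT libraries it was 4.28% to 9.74%. The ratios thus depend on the total RNA they are set against.

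The log2 ratio of bound to mRNA share was above 0 for 37 of the 76 members for Slf1 after H2O2 and 39 untreated, where 17 and 8 members had no Slf1 cluster reads. With those members ranked lowest, the Slf1 medians over all 76 were -0.09 after H2O2 and 0.04 untreated. For Sro9 the ratio was above 0 for 62 of 76 after H2O2 and 47 untreated, with medians of 0.88 and 0.21 over all 76. Among targets alone, the RPL median was 1.25 after H2O2 and 0.39 untreated for Slf1, against 1.17 and 1.18 for other targets. For Sro9 it was 0.90 and 0.25, against 0.21 and 0.32. RPL targets were thus above other targets in both data sets after H2O2, by little for Slf1, and below them in both untreated ones. These differences were not tested. RPL39 was among the highest in each data set, with 4.73 for Slf1 after H2O2 and 4.23 untreated, and 3.79 and 3.84 for Sro9. RPL41B, with 3.19 and 3.82 for Slf1 and 2.94 and 3.19 for Sro9, was also high. RPL23B had 3.76 for Slf1 after H2O2. Both have very short coding sequences, of 156 nt (RPL39) and 78 nt (RPL41B), and the part of length in these ratios was not tested. RPL7B, at 5.15 after H2O2 and 4.56 untreated for Sro9, had few total RNA counts, and 32.4% of its cluster reads were in clusters of unique sequence.

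Several members led the cluster reads of both LARPs. By reads summed over both libraries, the order for Slf1 after H2O2 was RPL23B (337), RPL2B (264), RPL5 (261), RPL10 (225) and RPL28 (199). By the mean share of the 2 libraries, RPL5 (0.512%) was above RPL2B (0.496%), and RPL33A (0.424%) was above RPL28 (0.422%). For Sro9 after H2O2 it was RPL3 (2157), RPL32 (2026), RPL5 (1627), RPL2B (1487) and RPL41B (1404). In untreated cells Slf1 had RPL5 (440), RPL2B (361), RPL3 (301), RPL32 (289) and RPL23B (263), and Sro9 had RPL2B (2963), RPL32 (2222), RPL3 (1869), RPL20A (1723) and RPL23B (1634). Across the 76 members the Slf1 and Sro9 reads had a Spearman correlation of 0.55 after H2O2 and 0.62 untreated, where replicates of a data set gave 0.60 to 0.67. These members share libraries and differ in length and abundance, so the values are a description.

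RPL2B (IX:316768-317932, plus strand, 1 intron) had 182 and 82 Slf1 reads after H2O2 and 132 and 229 untreated, and 813 and 674 Sro9 reads after H2O2 and 2217 and 746 untreated. RPL5 had 156 and 105 Slf1 reads after H2O2 and 171 and 269 untreated. Its Sro9 reads, 348 and 1279 after H2O2 and 511 and 413 untreated, included 1 library far above the other 3. RPL23B (V:396769-397653, plus strand, 1 intron), whose stretch is printed above, had 176 and 161 Slf1 reads after H2O2 and 222 and 41 untreated. Per 10000 mRNA cluster reads that made 56.4 and 80.2 after H2O2 and 96.9 and 12.6 untreated, so the untreated replicates lay on both sides of the treated ones. RPL28 had 26.6 and 57.8 Slf1 reads per 10000 after H2O2 and 40.6 and 38.6 untreated, and 17.7 and 8.84 Sro9 reads per 10000 after H2O2 and 9.83 and 8.31 untreated. The Slf1 values of RPL28 were all above the Sro9 ones. RPL32 (II:45978-46370, plus strand, no intron) had 114 and 9 Slf1 reads after H2O2 and 85 and 204 untreated, with 1 library far below the other 3.

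**Figure D4:**
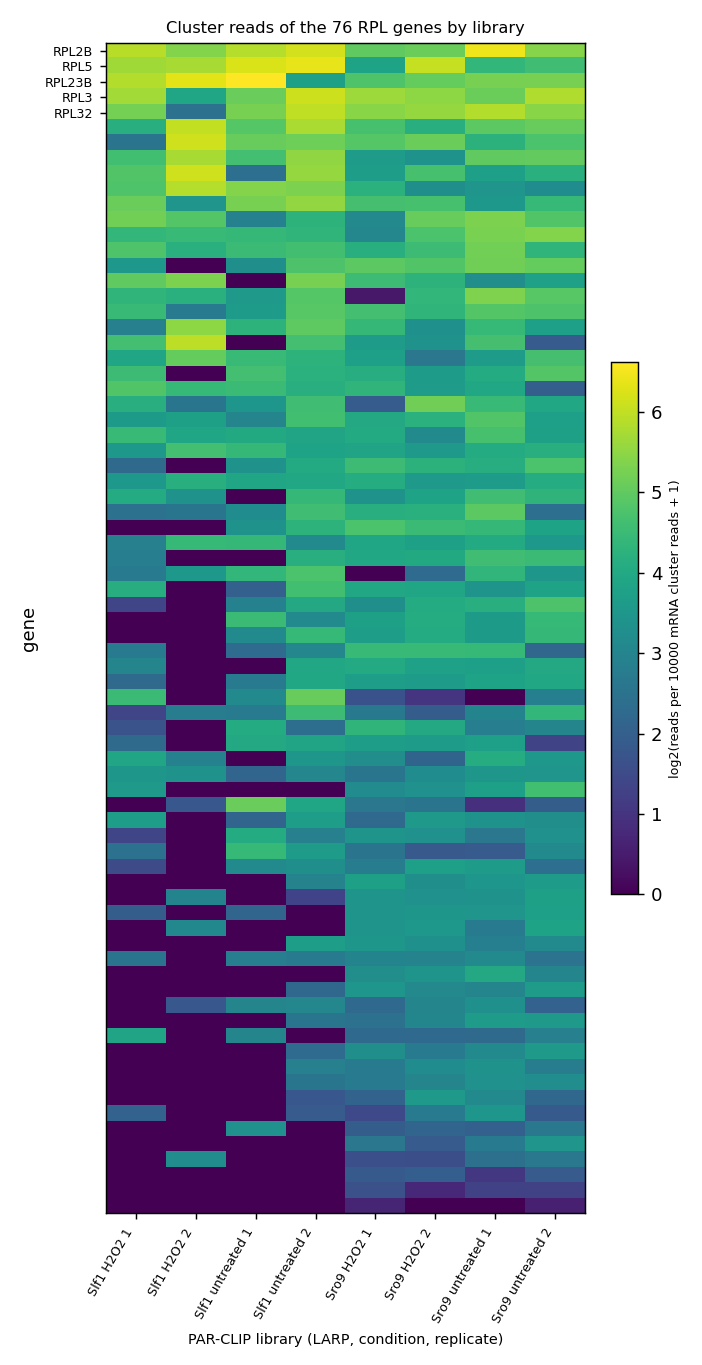
Cluster reads of the 76 RPL genes (y axis, ordered by their mean, with the 5 highest named) in the 8 PAR-CLIP libraries (x axis, by LARP, condition and replicate); colour is log2(reads per 10000 mRNA cluster reads + 1), and the darkest blocks have no kept cluster. The top genes by the mean over both LARPs are RPL2B, RPL5, RPL23B, RPL3 and RPL32, and most dark blocks lie in the Slf1 columns.

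Cluster reads per gene were compared between libraries with edgeR over 2088 genes, 75 RPL genes among them. RPL22B was too low to enter. No RPL gene passed in any of the 4 comparisons, and 0.0% of all genes did. For Slf1, H2O2 against untreated, the RPL median was -0.45, with 8 genes at an unadjusted p under 0.05 and a smallest adjusted p of 0.197, against a median of 0.00 and 136 of all 2088. For Sro9 it was -0.21, with 0 RPL genes and 112 of all genes at an unadjusted p under 0.05 and an all-gene median of 0.09. For Slf1 against Sro9 after H2O2 the RPL median was -1.10 with 18 genes at an unadjusted p under 0.05 (all genes -5.96, 698), and in untreated cells -0.74 with 7 (all genes -5.31, 580). A gene could enter on its Sro9 reads alone, and kept clusters lay on 289 to 769 genes in Slf1 libraries and 2287 to 2824 in Sro9 libraries. The all-gene medians of Slf1 against Sro9 thus include many genes without Slf1 reads, and cannot show whether Slf1 favours RPL mRNAs. DESeq2 called 3 RPL genes for Slf1, H2O2 against untreated, 17 for Slf1 against Sro9 after H2O2 and 4 in untreated cells. Without replicate 1 and replicate 2 of untreated Slf1, edgeR called 14 and 15 RPL genes for Slf1 against Sro9 after H2O2, and without any other library 0.

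LARP sites on RPL mRNAs lay mostly in the coding sequence. Kept clusters of targets, joined over replicates where they lay within 10 nt, formed 124 RPL sites for Slf1 after H2O2 and 204 untreated, and 725 and 692 for Sro9. Of these, 84.7% and 87.3% lay in the ORF for Slf1, and 80.6% and 82.2% for Sro9. The rest lay after the stop codon, apart from 4 Sro9 sites in introns after H2O2 and 10 untreated. A Sro9 target among the RPL genes had a median of 9 sites after H2O2 and 9 untreated, against 4 and 3 for other targets. Sro9 targets among the RPS genes had 10 and 9. A Slf1 target among the RPL genes had a median of 3 sites after H2O2 and 4 untreated, against 3 and 3 for other targets. RPL3, the longest, had the most sites for Sro9 after H2O2, with 21, and RPL4A the most in untreated cells, with 24. Sro9 clusters covered a median of 38.7% to 42.1% of an RPL coding sequence per library, and Slf1 clusters 0.0% to 17.0%.

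Sites of Sro9 were spread nearly evenly along RPL coding sequences. The last 20% of the coding sequence held 21.1% of Sro9 sites after H2O2 and 22.1% untreated, against 31.7% and 33.2% on other mRNAs. The first 20% held 18.0% and 17.6%, against 13.4% and 13.6% on others. On RPS mRNAs the last 20% held 20.05% of Sro9 sites after H2O2 and 18.4% untreated, and the first 20% held 17.4% and 17.4%. The near-even spread of Sro9 sites was thus not particular to RPL mRNAs. For Slf1 the last 20% held 29.5% after H2O2 and 28.1% untreated on RPL mRNAs, against 28.5% and 27.5% on others. The sites of one gene are not independent, so no test is given.

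**Figure D5:**
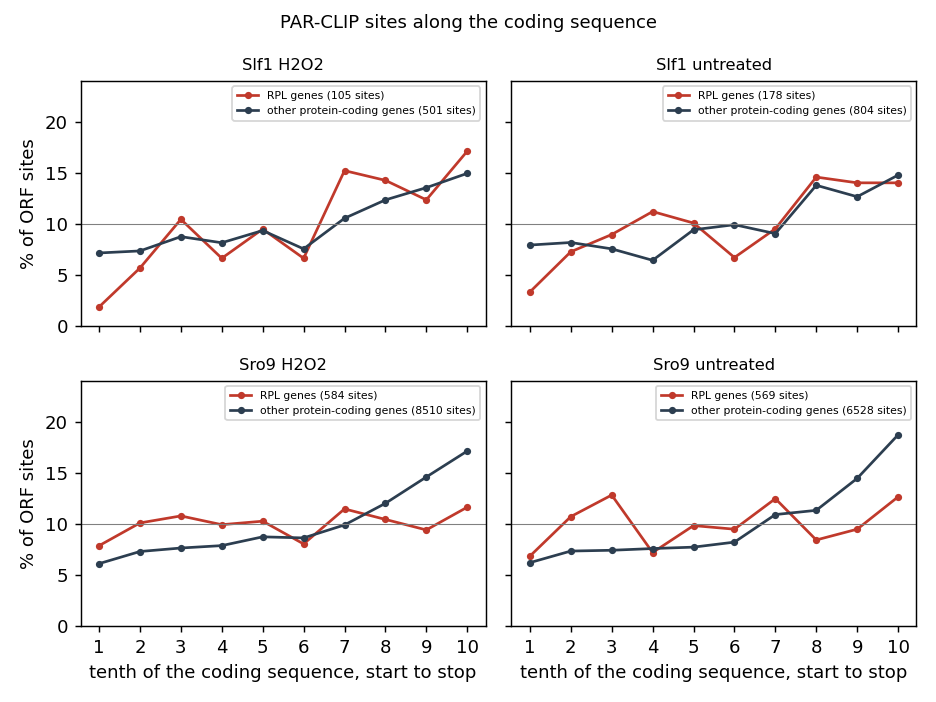
Share of ORF sites (y axis, percent) in 10 equal bins of the coding sequence from start to stop (x axis) for RPL genes and for other protein-coding genes, in 4 panels for Slf1 and Sro9 after H2O2 and untreated; the grey line marks an even spread. Sro9 sites on RPL mRNAs stay near the line, with 11.6% in the last bin after H2O2, where other mRNAs reach 17.1%.

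The 4-base motifs marked in the sequences above occurred in 66.7% of Slf1 ORF sites on RPL mRNAs after H2O2 and 68.5% untreated, against 66.9% and 63.9% on other mRNAs. For Sro9 it was 70.03% after H2O2 and 74.2% untreated on RPL mRNAs, against 48.3% and 50.6% on others. Only the coding strand was searched, and overlapping matches count each. RPL sites are longer (a median of 39 nt after H2O2 and 43 nt untreated for Sro9, against 28 and 31 nt), and RPL coding sequences hold more of the motif throughout, 2.73 per 100 nt against 1.34 in other coding sequences. Per 100 nt of site, Sro9 had 3.12 after H2O2 and 3.07 untreated on RPL mRNAs, against 2.42 and 2.44 on others, and Slf1 2.77 and 3.50, against 3.59 and 3.34. All 4 densities of RPL sites lay above that of whole RPL coding sequences, by the least for Slf1 after H2O2, and these differences were not tested. Of the motifs in RPL sites, 91.1% to 95.7% lay in the same reading frame, and 91.2% did over whole RPL coding sequences, against 62.1% in other coding sequences.

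RPL clusters were also compared by their conversions and depth. The T–C conversion percentage of Sro9 clusters on RPL mRNAs was 12.2% and 12.1% after H2O2 and 10.3% and 10.7% untreated. On other mRNAs it was 12.8% and 12.5% after H2O2 and 10.9% and 10.8% untreated. For Slf1 clusters it was 7.17% and 8.24% on RPL mRNAs after H2O2 and 8.12% and 9.18% untreated. On other mRNAs the Slf1 values were 8.14% and 6.26% after H2O2 and 10.2% and 9.26% untreated. Sro9 clusters on RPL mRNAs held a median of 27 and 21 reads after H2O2 and 42 and 25 untreated, against 13 and 11 and 18 and 12 on others. For Slf1 the medians were 15 and 26.5 after H2O2 and 17 and 19 untreated, against 14 and 24 and 15 and 12 on others. Per covered nt, RPL clusters held more reads than others in the 4 Sro9 libraries and fewer in the 4 Slf1 libraries. Clusters whose sequence occurs once in the genome held 83.0% to 91.3% of RPL reads.

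Slf1 targets and other RPL genes had nearly the same median response in WT. The 33 Slf1 targets after H2O2 had a median log2 fold change of -1.07 in WT and the 43 others -1.19, and for the untreated set of 49 and 27 the medians were -1.14 and -1.20.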

How the data were processed

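PAR-CLIP reads were, per the labels and the study's methods, trimmed with Trim Galore, aligned to R64 by Bowtie 1.2.0 with up to 2 mismatches and up to 10 places per read, and clustered per library with PARalyzer. The deposited cluster tables hold read counts and T–C conversions per cluster, and a fraction, the score at the mode, which the authors' caller computed and no test used here. For total RNA, rRNA was depleted, and the deposited values are the authors' featureCounts counts per feature, not normalized. Their strand setting is not given in the sources used here.

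Clusters of at least 5 reads, 2 conversions and 11 to 100 nt were kept and placed by the annotation, with 200 nt after the stop codon standing for the 3′ end. Counts of the 12 untagged libraries, without 40 rRNA features, were fitted with edgeR 4.0.16 (TMM, 6 groups, quasi-likelihood test, Benjamini-Hochberg adjustment) in R 4.3.3. Cluster reads of 2088 genes with at least 10 reads in 2 libraries were fitted likewise with 4 groups. DESeq2 1.42.0, other scalings and filters, summed copies, a replicate block and leaving out each library were alternatives. Other steps used Python 3.11.15, numpy 2.4.6, pandas 2.3.3 and scipy 1.17.1, and the fits were tested on simulated data. In all, 9 comparisons of total RNA, 4 of cluster reads and 1 of shares were tested.

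Genes are named for the 5 lowest and 5 highest fold changes per response, the 5 smallest adjusted p per strain contrast, the 5 with most cluster reads per data set, a known special role, or no cluster in a library. RPL4A, RPL38, RPL15A and the genes listed beside a count or for the balance of copies fall outside this rule and were chosen after their values were seen. A gene that the rule selects is not reported here. The members and lists were chosen with earlier results of these data known. The 8 total RNA libraries of tagged strains entered no test.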

Additional observations from a re-analysis of the deposited data

Results flagged for a closer look

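The RPL share of mRNA cluster reads was 13.7% in replicate 2 of untreated Slf1, far from the other Slf1 libraries, which held 9.75% (untreated, replicate 1) and 8.99% and 9.66% (after H2O2). Its gap to the nearest of them is large against the range of the 4 libraries. Chance singles out about 1 in 20 groups in this way. Without this library the Slf1 share averaged 9.47%, against 11.07% for Sro9 (exact permutation p = 0.114).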

How the results depend on the processing

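The H2O2 medians of the RPL genes were negative in 66 of 66 fits over the 3 strains, and no called value changed sign, but the counts of RPL genes past the threshold moved. With 1 library left out, medians of strain comparisons without a call changed sign: -0.29 to 0.56 for the sro9Δ minus WT response, -0.56 to 0.81 for slf1Δ minus WT, and -0.08 to 0.53 untreated and -0.35 to 1.04 after H2O2 for slf1Δ against WT. In WT (30) the count was 47 with DESeq2, 54 with library size only, 15 with copies summed, 5 without the 3 libraries with over 75% rRNA, and 0 to 48 with 1 library left out. In sro9Δ (9) it was 29 with DESeq2, 14 with its size factors, 46 with library size only, 21 with upper-quartile scaling, 1 with copies summed, 0 without the 3 libraries and 0 to 21 with 1 left out. In slf1Δ (3) it was 12 with DESeq2, 10 with library size only, 7 with upper-quartile scaling, 0 without the 3 libraries and 0 to 28 with 1 left out. For untreated slf1Δ against WT it was 0 to 1 with 1 left out. The setting without the 3 libraries, and one with protein-coding genes alone, were chosen after seeing the data. Fewer libraries or features enter some of these fits, and otherwise the cause was not tested.

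Replicate numbers were not used to pair the libraries in the main fits, since the labels do not say whether a number marks a shared culture. Deviations of same-numbered libraries correlated at -0.07 in WT, -0.03 in sro9Δ and 0.15 in slf1Δ, and at -0.03 for Slf1 and -0.04 for Sro9 in PAR-CLIP. These values cannot show that same-numbered libraries came from different cultures. With the replicate number as a block, 32 RPL genes passed in WT, 13 in sro9Δ and 7 in slf1Δ, 0 in each other comparison, and the difference of the Slf1 and Sro9 shares, paired within condition, was again -0.536 and did not pass an exact permutation test.

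For Slf1 cluster reads, H2O2 against untreated (0), DESeq2 called 3 RPL genes and a limit of 1 read a gene 3. For Slf1 against Sro9 (0 each) the counts after H2O2 were 17 with DESeq2, 18 with clusters of at least 20 reads, 14 with 1 read a gene and 0 to 15 with 1 library left out, and untreated 4, 16 and 3. The share difference of -0.536 was -2.59 over all kept reads, of which mRNAs were a smaller part for Slf1, and -1.60 to -0.0238 with 1 library left out. Slf1 targets after H2O2 (33) were 59 in either replicate, 21 at 20 reads and 38 to 54 with 1 library left out; untreated (49) they were 24 at 20 reads and 52 to 65. The ORF share of sites for Slf1 after H2O2 was 89.5% at 20 reads, 80.0% for clusters of unique sequence and 84.4% to 87.0% with 1 library left out, and 83.1% to 90.1% untreated. For Sro9 it was 81.6% at 20 reads, 83.2% with 100 nt after the stop codon, 75.2% for unique sequence and 79.4% to 80.5% after H2O2, and 84.8%, 83.9%, 77.5% and 80.5% to 82.0% untreated. The share of ORF sites in the last 20% for Slf1 was 33.8% for unique sequence and 30.1% to 36.2% after H2O2, and 37.3% at 20 reads and 28.7% to 32.4% untreated. For Sro9 it was 23.8% at 20 reads and 20.6% to 23.9% after H2O2, and 24.2%, 24.5% (unique sequence) and 22.02% to 22.6% untreated. Of single-gene values, 631 kept their side of the threshold, 51 lost and 18 gained it. The number of reads on mRNAs limits most the Slf1 libraries, where a gene with no kept cluster can still have had reads, and the 3 libraries high in rRNA.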

Other observations

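The 8 total RNA libraries of the tagged strains are given by their labels only, which their SRX1 levels go against. The RPL share of counts outside rRNA was 4.45% and 4.69% in the libraries labelled Slf1-TAP after H2O2, with SRX1 at 1.29 and 0.977 CPM (over counts outside rRNA, without TMM), and 2.41% and 2.23% in those labelled Slf1-TAP untreated, with SRX1 at 867 and 408 CPM. It was 4.54% and 4.56% in the libraries labelled Sro9-TAP after H2O2, with SRX1 at 3.61 and 3.46 CPM, and 3.67% and 3.57% in those labelled Sro9-TAP untreated, with SRX1 at 1022 and 1066 CPM. In these 8 libraries the lower RPL shares stood with the higher SRX1 levels.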
